A study of Mus musculus with 7 samples.

Results

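The miR-26 family was followed through its 2 guide (5p) arms, mmu-miR-26a-5p and mmu-miR-26b-5p (mmu for mouse), chosen by name and both found among the 1978 mature miRNA names of the deposited table. Small RNA was sequenced from CD8+ T cells sorted from spleens of gBT-I mice, a strain with a transgenic T cell receptor that all groups share. The 4 groups were 2 libraries of neonatal VM cells, 2 of adult VM cells, 1 of neonatal TN cells and 2 of adult TN cells. VM (virtual memory) is the field's name for CD44hi CD122hi cells that carry memory markers without having met antigen, and TN (true naive) for CD44lo CD122lo cells. The labels give neither ages in days nor whether animals were pooled or each replicate is its own animal. P-values therefore reflect variation from library to library that could be technical.

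MiRNAs guide Argonaute proteins to messenger RNAs, mostly through the seed near their 5′ end, and lower the translation and stability of those targets. The miR-26 family is abundant in many differentiated cells, and its hairpins lie within the genes of the small C-terminal domain phosphatases Ctdspl, Ctdsp2 and Ctdsp1, which dephosphorylate RNA polymerase II. One of its best studied targets is Ezh2, a Polycomb histone methyltransferase, and in human T cells miR-26a has been described, with miR-101, as a brake on that enzyme.

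The mature arms are shown first, because the 2 members share their seed and differ outside it; capitals mark bases 2 to 8, the seed, and sequences are those of RefSeq on GRCm38.p6, 5′ to 3′.
miR-26a-5p: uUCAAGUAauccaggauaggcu
miR-26b-5p: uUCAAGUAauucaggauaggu
Counted from 1 at the 5′ end of miR-26a-5p, the members differ by C11U and C21U, and miR-26b-5p is 21 bases long against 22 for miR-26a-5p. Among 1679 mature mouse miRNAs in the RefSeq table, all matched to names of the deposited table, no other miRNA carried these bases 2 to 8. MiR-6371 shared bases 2 to 7 and had 0 counts in all 7 libraries.

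MiR-26a-5p is encoded by a pair of hairpins and miR-26b-5p by a single one, shown here with both mature arms in capitals because the opposite (3p) arms tell the loci apart.
Mir26a-1 hairpin: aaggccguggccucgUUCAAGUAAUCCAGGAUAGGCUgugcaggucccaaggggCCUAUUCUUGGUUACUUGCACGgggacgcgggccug
Mir26a-2 hairpin: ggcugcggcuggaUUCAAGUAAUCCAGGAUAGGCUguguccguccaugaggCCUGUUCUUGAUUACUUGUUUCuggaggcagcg
Mir26b hairpin: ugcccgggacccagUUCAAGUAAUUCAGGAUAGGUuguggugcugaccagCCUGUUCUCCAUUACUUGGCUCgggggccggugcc
All lie on the plus strand of GRCm38 (mm10), the strand of their host gene in GENCODE M21. Mir26a-1 (chr9:119031796-119031885) lay in an intron of all 3 Ctdspl transcripts that span it. Mir26b (chr1:74394310-74394394) lay in an intron of both Ctdsp1 transcripts that span it. Mir26a-2 (chr10:126995530-126995613) lay in an intron of 1 Ctdsp2 transcript and in an exon of 2 others, of which 1 is a retained-intron form.

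Reads of the 2 members were partly shared in the authors' counting. The lines of miR-26a-5p for its 2 hairpins differed by 1 to 9 estimated counts, always higher for Mir26a-2, out of 38989.8 to 83293 counts on the Mir26a-1 line. In 6 of 7 libraries the miR-26b-5p line lay 0.33 from a whole number, and in all 7 the 3 lines together came within 0.02 of one. These values are what results when a read that fits several hairpins is divided equally between them, so the 2 lines of miR-26a-5p were added. How many reads were divided between miR-26a-5p and miR-26b-5p is not given, and the split between the members is uncertain to that extent.

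Library totals ran from 1577031 to 3278449 counts, and the family was deeply covered, with 77983 to 166587 counts of miR-26a-5p and 10809 to 30356 of miR-26b-5p. CPM values (counts scaled to a common library size) below are scaled by TMM factors, which set the centre of the miRNAs as the common level. The miRNAs listed for lymphocytes, miR-150-5p, miR-142a-5p and miR-142a-3p, which need not be limited to them, summed to 110827 to 149936 CPM in the 3 neonatal and 321791 to 481913 CPM in the 4 adult libraries. Markers of other cells were low. All 3 erythroid markers had counts and summed to 79.95 to 230.3 CPM in neonatal and 123.0 to 297.0 CPM in adult libraries. The myeloid miR-223-3p was at 0.989 to 3.92 CPM in neonatal and 1.71 to 15.6 CPM in adult libraries. Both endothelial and progenitor markers had counts and summed to 54.4 to 75.8 CPM in neonatal and 8.09 to 26.3 CPM in adult libraries. Of 5 stromal and muscle markers, miR-1a-3p and miR-206-3p were at 0 in every library, and the list summed to 33.1 to 68.5 CPM in neonatal and 5.40 to 26.3 CPM in adult libraries. The hepatocyte miR-122-5p was at 0 in the neonatal libraries and at most 1.08 CPM in adult ones. The part of these marker differences in the results below was not tested.

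The family as a whole took 5.08 to 6.16% of all counts in the 7 libraries. Together the 2 members made up 5.63 and 5.67% of all counts in the neonatal VM libraries, 6.10 and 5.08% in the adult VM libraries, 6.16% in the neonatal TN library (95% Wilson interval 6.13 to 6.18%) and 5.51 and 5.11% in the adult TN libraries. Such intervals hold the counting error alone, as the reads carry no molecular identifiers and are not independent molecules. The adult VM replicates alone spanned nearly the whole range of the 7 libraries. MiR-26a-5p ranked 6th among mature miRNAs in each VM library and 4th in each TN library. MiR-26b-5p ranked 21st to 26th in VM libraries and 23rd to 27th in TN libraries.

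What differed was the split between the members. MiR-26b-5p made up 12.2 and 12.98% of the family's counts in neonatal VM cells, 12.5 and 18.2% in adult VM cells, 9.28% in the neonatal TN library and 9.72 and 8.72% in adult TN cells. Each of the 4 VM libraries lay above each of the 3 TN libraries, at both ages. Per 100 counts of miR-26a-5p there were 14.4 ± 0.748 counts of miR-26b-5p in neonatal VM and 18.3 ± 5.64 in adult VM cells (SD, n = 2 each), against 10.2 in the neonatal TN library and 10.2 ± 0.859 in adult TN cells (SD, n = 2). A ratio within a library does not depend on how libraries are scaled. It is given as a description, with no test, and the adult VM replicates lay further apart than the neonatal VM mean from the TN values.

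**Figure D1:**
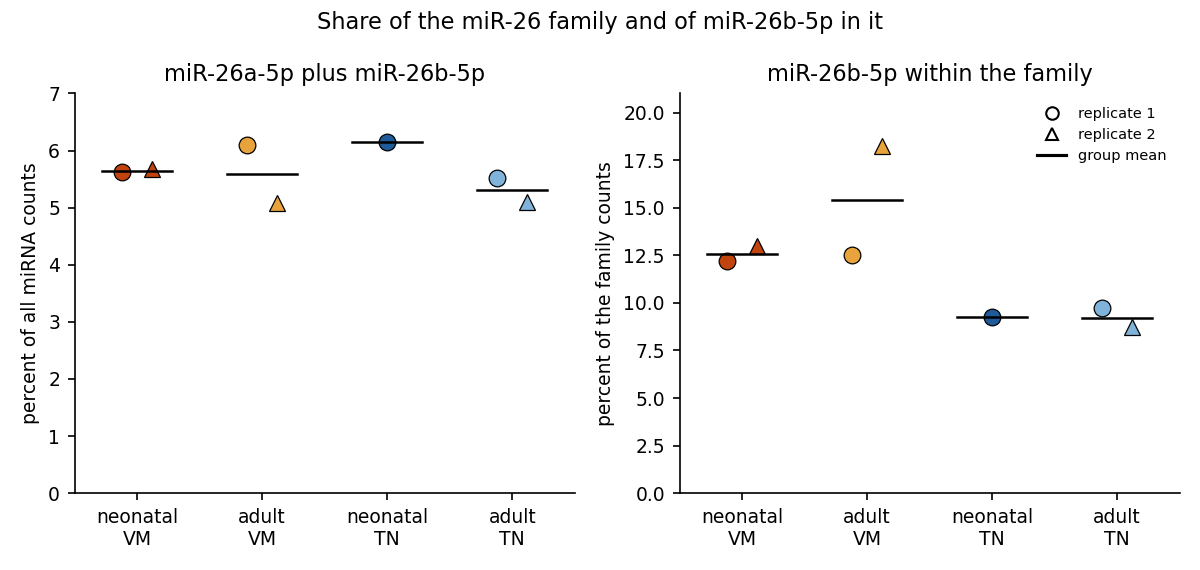
Left, miR-26a-5p plus miR-26b-5p as percent of all miRNA counts; right, miR-26b-5p as percent of the family's counts, with 1 point per library and a line at each group mean. The left panel runs from 5.08 to 6.16%. There the adult VM libraries (6.10 and 5.08%) span those of neonatal VM and adult TN, and the neonatal TN library is highest. In the right panel the VM libraries (12.2 to 18.2%) lie above the TN libraries (8.72 to 9.72%).

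The standard deviation of log2 CPM over the 7 libraries was 0.26 for miR-26a-5p and 0.38 for miR-26b-5p, against a median of 0.71 over the 288 miRNAs tested and of 0.39 over the 30 most abundant. MiR-26a-5p was the 20th least variable of the 288, and 5 of the 30 most abundant miRNAs varied less. MiR-26b-5p was the 52nd least variable, and 13 of the 30 varied less. The highest library exceeded the lowest 1.55-fold for miR-26a-5p and 1.98-fold for miR-26b-5p.

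MiR-26a-5p, the dominant member, stood at 38559.6 and 38751 CPM in neonatal VM cells, 58259 and 47044 CPM in adult VM cells, 51837 CPM in the neonatal TN library and 55238 and 59673 CPM in adult TN cells. Under TMM the neonatal VM libraries were the lowest 2, and the other 3 groups overlapped or lay close together. As a share of all counts the order was another, with neonatal TN at 5.59%, neonatal VM at 4.94 ± 0.00842%, adult TN at 4.82 ± 0.222% and adult VM at 4.74 ± 0.835%, and the lowest 2 libraries were adult VM replicate 2 (4.15%) and adult TN replicate 2 (4.66%). The group order under TMM was adult TN (57456 ± 3136.5), adult VM (52651.5 ± 7931), neonatal TN (51837) and neonatal VM (38655 ± 135; mean ± SD, n = 2 except neonatal TN). Adult VM and neonatal TN did not differ beyond the adult VM spread, and adult TN and adult VM overlapped.

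MiR-26b-5p had another order. It stood at 5345 and 5781 CPM in neonatal VM cells, 8347 and 10494 CPM in adult VM cells, 5302 CPM in the neonatal TN library and 5947 and 5699.6 CPM in adult TN cells. Adult VM was highest at 9421 ± 1518 CPM, and adult TN (5823 ± 175), neonatal VM (5563 ± 309; SD, n = 2 each) and the neonatal TN library were close together. The 2 adult VM libraries were apart from all others, while the values of adult TN and neonatal VM overlapped. As a share of all counts the adult VM libraries were again the highest, at 0.764 and 0.926%, followed by neonatal VM at 0.685 and 0.736%.

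**Figure D2:**
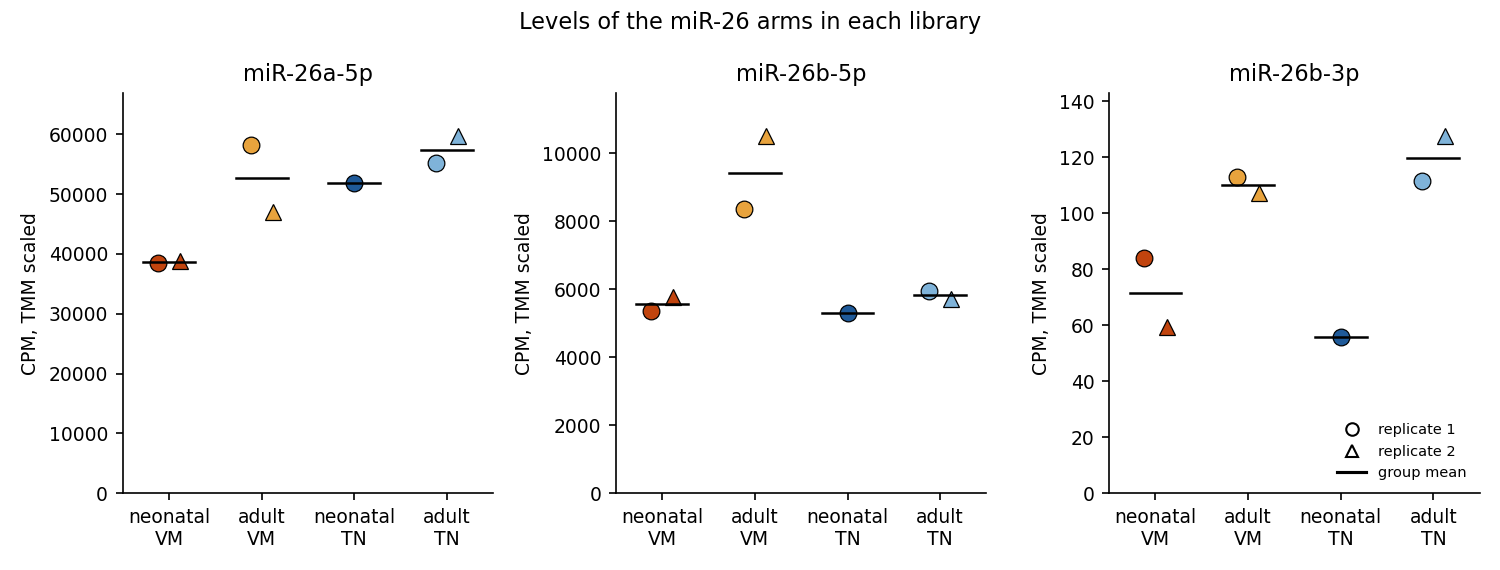
TMM-scaled CPM of miR-26a-5p, miR-26b-5p and miR-26b-3p in each library, with replicates as circles and triangles and a line at each group mean; axes start at 0. Neonatal VM is lowest for miR-26a-5p (38559.6 and 38751 CPM), adult VM is highest for miR-26b-5p (8347 and 10494 CPM), and all neonatal libraries lie below the adult ones for miR-26b-3p, all under TMM.

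The comparison of neonatal with adult VM cells asked how age alters the memory-marked subset, and here both members were lower in neonatal cells. MiR-26b-5p, at 5345 and 5781 CPM in neonatal against 8347 and 10494 CPM in adult VM cells, was 1.69-fold lower (log2 change -0.76 with an SE of 0.18, edgeR adjusted p = 0.00421). MiR-26a-5p, at 38559.6 and 38751 CPM against 58259 and 47044 CPM, was 1.36-fold lower (log2 change -0.45 with an SE of 0.17, edgeR adjusted p = 0.0407). In this comparison 53.8% of the 288 miRNAs passed, 30.9% of the 288 as lower and 22.9% as higher, and 2 of 2 members is too few to set apart from that share. The members' median log2 change was -0.60, against -0.08 over all tested miRNAs. Both calls depended on the scaling: under library totals alone, which moved the median of all tested miRNAs by 0.51, the log2 change of miR-26b-5p was -0.25 (edgeR adjusted p = 0.247) and that of miR-26a-5p turned to 0.059 (edgeR adjusted p = 0.771), with adjusted p over all alternatives from 8.758e-06 to 0.247 and from 0.0001483 to 0.771. The call of miR-26a-5p also ended with RLE and upper quartile factors, the 100 CPM filter, DESeq2, non-robust dispersions, and without adult VM replicate 1 (log2 change -0.29), adult TN replicate 2, either neonatal VM library or the neonatal TN library; that of miR-26b-5p ended without neonatal VM replicate 1 (edgeR adjusted p = 0.0915).

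In TN cells neither member passed with age. MiR-26a-5p, at 51837 CPM in the neonatal library against 55238 and 59673 CPM in adult cells, had a log2 fold change of -0.15 (95% interval -0.60 to 0.30, edgeR adjusted p = 0.583). For miR-26b-5p, at 5302 CPM in the neonatal library against 5947 and 5699.6 CPM in adult cells, it was -0.14 (95% interval -0.63 to 0.36, edgeR adjusted p = 0.655). Both signs turned under library totals (0.21 and 0.22), which moved the median of all tested miRNAs by 0.36. In all, 47.9% of the tested miRNAs passed with age in TN cells (26.4% higher and 21.5% lower), and 253 and 257 of the 288 had a larger absolute change than miR-26a-5p and miR-26b-5p. The neonatal arm held 1 library, assumed in the fit to vary like the others.

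Averaged over both subsets, neither member passed with age, where 53.8% of miRNAs did (26.4% higher and 27.4% lower). The log2 fold change of neonatal over adult cells was -0.33 for miR-26a-5p (SE 0.15, edgeR adjusted p = 0.108; 0.12 under library totals, which moved the median of all tested miRNAs by 0.45) and -0.50 for miR-26b-5p (SE 0.19, edgeR adjusted p = 0.0507), the second just above the threshold of 0.05. MiR-26b-5p passed with upper quartile factors, no filter, limma voom or the largest precursor line (-0.65 to -0.51). Under library totals it was -0.058 and did not pass (edgeR adjusted p = 0.803). Without adult TN replicate 1 or 2 its change was -0.61 and -0.60. Without the neonatal TN library this fit is no average over subsets, as its age term is then the age effect in VM cells (-0.73). Whether the age effect differs between the subsets was tested as an interaction. The age effect in VM minus that in TN was -0.62 for miR-26b-5p (95% interval -1.25 to 0.00054, edgeR adjusted p = 0.204) and -0.30 for miR-26a-5p (95% interval -0.87 to 0.28, edgeR adjusted p = 0.556; 0.10 with upper quartile factors). Neither passed, against 7.99% of all tested miRNAs (1.74% higher and 6.25% lower), so a difference between the subsets is not shown for either member. Without adult VM replicate 1 the interaction of miR-26b-5p was -0.75.

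Between adult VM and adult TN cells, which asks what marks the subset at maturity, the members parted. MiR-26b-5p, at 8347 and 10494 CPM in VM against 5947 and 5699.6 CPM in TN cells, was 1.62-fold higher in VM cells (log2 change 0.69 with an SE of 0.18, edgeR adjusted p = 0.0119). MiR-26a-5p, at 58259 and 47044 CPM in VM against 55238 and 59673 CPM in TN cells, had a log2 fold change of -0.13 (95% interval -0.49 to 0.24, edgeR adjusted p = 0.562). One of 2 members passed, against 38.9% of all tested miRNAs (23.3% higher and 15.6% lower), with 136 of 288 larger in absolute change than miR-26b-5p. The rise of miR-26b-5p passed with each of the 4 other scalings, at 0.62 to 0.78. It did not pass without adult TN replicate 1 or 2 (log2 changes 0.60 and 0.62, edgeR adjusted p = 0.117 and 0.1505; range over alternatives 0.0001957 to 0.1505), and without adult VM replicate 2 it was 0.40.

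Between neonatal VM and TN cells neither member passed, against 9.72% of all tested miRNAs (3.12% higher and 6.6% lower). MiR-26a-5p, at 38559.6 and 38751 CPM in VM cells against 51837 CPM in the TN library, had a log2 fold change of -0.42 (95% interval -0.86 to 0.015, edgeR adjusted p = 0.233). Without adult VM replicate 2, a library in neither arm, the change was -0.45. MiR-26b-5p, at 5345 and 5781 CPM against 5302 CPM, had 0.07 (95% interval -0.42 to 0.56, edgeR adjusted p = 0.889). Averaged over both ages, the log2 fold change of VM over TN was -0.25 for miR-26a-5p (SE 0.15, edgeR adjusted p = 0.259) and 0.44 for miR-26b-5p (SE 0.19, edgeR adjusted p = 0.124), where 24.7% of miRNAs passed (10.8% higher and 13.9% lower). MiR-26b-5p passed there under library totals (0.59) and upper quartile factors (0.57). These signs held with each of the 4 other scalings in both comparisons, but sizes did not. In neonatal cells miR-26a-5p was -0.045 with upper quartile factors and -0.18 under library totals, and miR-26b-5p was 0.45 and 0.31. The comparisons share libraries and are not independent of each other.

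**Figure D3:**
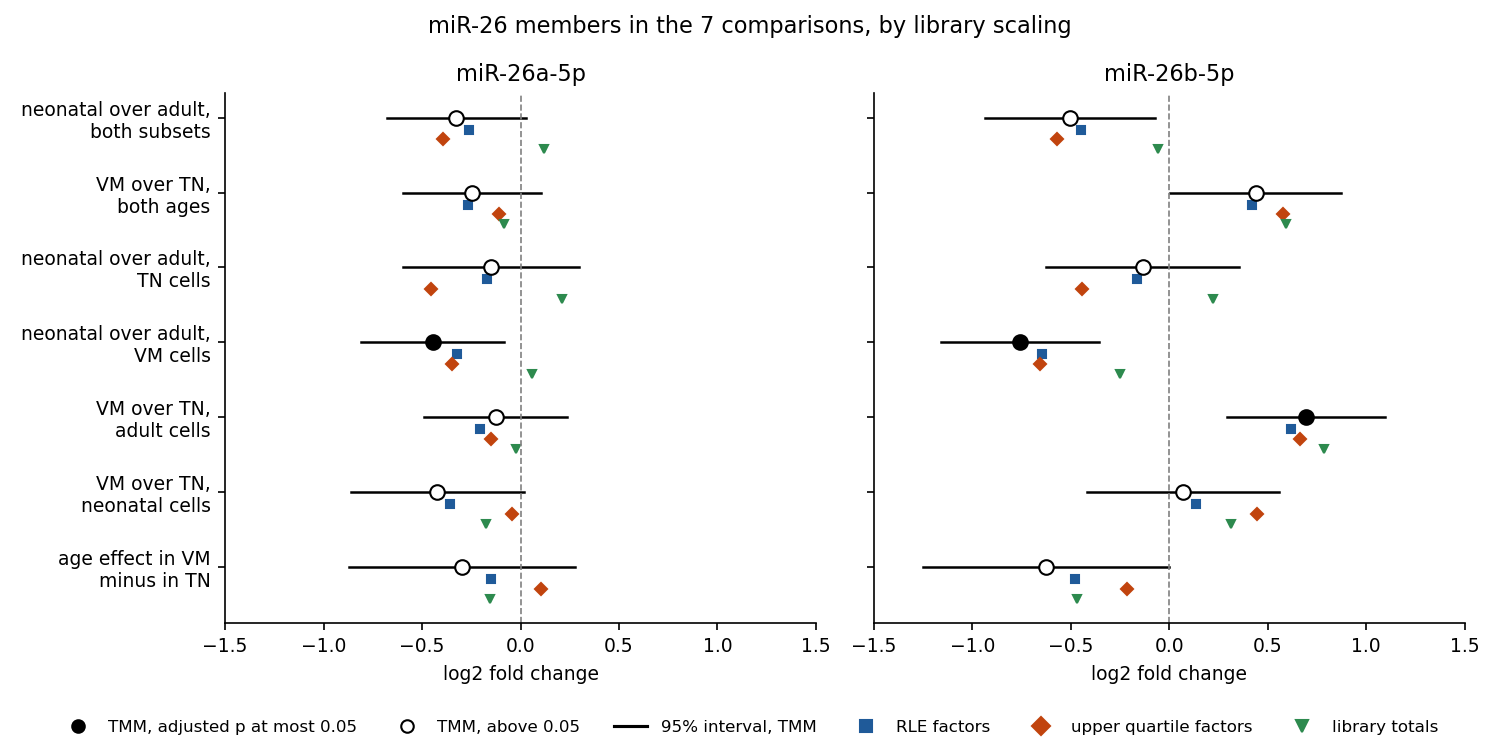
Log2 fold changes of miR-26a-5p and miR-26b-5p in the 7 comparisons, with 95% intervals under TMM (filled circles, adjusted p at most 0.05) and the values under RLE factors, upper quartile factors and library totals below each. The filled circles are the age effect in VM cells for both members (-0.45 and -0.76) and VM over TN in adult cells for miR-26b-5p (0.69); library totals shift the age effects of both members upward.

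The opposite arms, usually degraded after the duplex is opened, were far rarer. Their sequences tell the hairpins apart; capitals again mark bases 2 to 8.
miR-26b-3p: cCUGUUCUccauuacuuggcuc
miR-26a-2-3p: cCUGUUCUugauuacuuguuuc
miR-26a-1-3p: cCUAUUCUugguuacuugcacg
MiR-26b-3p and miR-26a-2-3p share one seed, which miR-26a-1-3p does not. MiR-26a-1-3p had 0 counts in all 7 libraries, which allows up to 3 counts per library, or 0.784 to 1.62 CPM. MiR-26a-2-3p had 7 and 8 counts in neonatal VM, 6 and 11 in adult VM, 13 in neonatal TN and 2 and 13 in adult TN libraries, too few to be tested. So 1 of 3 opposite arms, miR-26b-3p, was tested.

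MiR-26b-3p was lower in neonatal cells over both subsets and in TN cells under TMM. It stood at 84.1 and 59.3 CPM in neonatal VM, 113 and 107 CPM in adult VM, 55.7 CPM in the neonatal TN library and 112 and 128 CPM in adult TN cells, with no overlap between the ages under TMM. By library totals alone the ages overlapped, since neonatal VM replicate 1 stood at 107.8 CPM, above the 4 adult libraries at 94.6 to 103.5 CPM. Over both subsets its log2 fold change was -0.81 (SE 0.24, edgeR adjusted p = 0.0180) and in TN cells -1.10 (SE 0.33, edgeR adjusted p = 0.0176). In VM cells it was -0.63 and did not pass (edgeR adjusted p = 0.0587, and -0.12 under library totals). The VM change passed with no filter (-0.74) and limma voom (-0.67), and without adult VM replicate 2 it was -0.62. The interaction was 0.48 (edgeR adjusted p = 0.551), so a difference between the subsets is not shown. Under library totals neither the change over both subsets (-0.36) nor that in TN cells (-0.74) passed. The call over both subsets was also lost with the 100 CPM filter and without neonatal VM replicate 2. Without the neonatal TN library that fit gave the age effect in VM cells (-0.60), which did not pass. The call in TN cells was lost without adult TN replicate 2. By subset it did not pass (over both ages 0.07, edgeR adjusted p = 0.875). Per 1000 counts of miR-26b-5p there were 15.7 and 10.3 counts of miR-26b-3p in neonatal VM, 13.6 and 10.2 in adult VM, 10.5 in neonatal TN and 18.8 and 22.4 in adult TN libraries. The 2 adult TN libraries had the highest ratios, and the other 3 groups overlapped.

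Other miRNAs known to target Ezh2 were read beside the family. Of 4 listed, miR-214-3p had 0 counts and 3 were tested. In neonatal against adult VM cells, miR-101a-3p (log2 fold change -2.56, edgeR adjusted p = 7.94e-05) and miR-101b-3p (-0.83, edgeR adjusted p = 0.0136) were lower in neonatal cells, as both miR-26 members were under TMM; miR-101b-3p did not pass under library totals (-0.32), without the 5 most abundant miRNAs in library sizes, with the 100 CPM filter, or without adult TN replicate 2 or neonatal VM replicate 1, and without adult VM replicate 2 it was -0.40. MiR-138-5p, at 14.8 and 13.3 CPM in neonatal and 8.05 and 6.57 CPM in adult VM cells, had 0.94 (edgeR adjusted p = 0.0713), and 1.04 to 1.44 with the 4 other scalings. It met the filter of 10 CPM only in the neonatal VM libraries, with 30 and 51 counts there against 4 to 20 elsewhere. Without either of them it was not tested. Its changes in comparisons that hold neonatal VM cells are therefore not separate from the filter and are given as description. Between adult VM and TN cells, miR-101a-3p (1.91, edgeR adjusted p = 0.00109) and miR-101b-3p (1.47, edgeR adjusted p = 0.00109) rose, as did miR-26b-5p, though not without adult TN replicate 2 (edgeR adjusted p = 0.0570 and 0.0742); without adult VM replicate 2 miR-101b-3p was 0.97. The list's median log2 change over its 3 tested members, miR-138-5p included, was -0.83 for neonatal over adult VM cells and 1.47 for adult VM over adult TN cells, against -0.08 and 0.09 over all tested miRNAs. The 2 of 3 calls in each comparison, miR-101a-3p and miR-101b-3p, stand beside 53.8% (30.9% as lower) and 38.9% (23.3% as higher) of all tested miRNAs. In neonatal against adult cells, 1 of 3 (miR-101a-3p) passed as lower over both subsets, where 53.8% of all tested miRNAs passed in either direction, and in TN cells, where 47.9% did. In VM against TN cells over both ages miR-101a-3p passed as higher (1.48), where 24.7% of all passed and 10.8% passed as higher. MiR-101b-3p did not (0.94, edgeR adjusted p = 0.0548). MiR-138-5p also passed there (1.60), but its call is not separate from the filter, which it met only in neonatal VM libraries. It is not set against those shares. Calls were lost for miR-101a-3p without adult TN replicate 1 or 2 (1.32 and 1.365) and for miR-138-5p without adult TN replicate 1 (1.46). Without the neonatal TN library the fit gave the subset effect in adult cells, for miR-138-5p 1.33, which did not pass. In neonatal VM against TN cells 0 of 3 passed in edgeR, where 9.72% of all did. MiR-138-5p was at 1.89 there, again in a comparison that holds the group through which it met the filter. MiR-101a-3p (0.88) passed with upper quartile factors (1.26) and without a filter (0.94). Without adult VM replicate 1 or 2 miR-101a-3p was 0.88 and 0.86. For the interaction 0 of 3 passed in edgeR, where 7.99% of all did. MiR-101b-3p (-1.28, edgeR adjusted p = 0.0587) passed without a filter (-1.21) and with the replicate block (-1.41). MiR-101a-3p (-1.03, edgeR adjusted p = 0.196) passed without a filter (-0.965). Without adult VM replicate 1 or 2 the interaction was -1.55 and -0.80 for miR-101b-3p, and -1.35 and -0.46 for miR-101a-3p.

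The 2 members were not each other's nearest in pattern. Likeness was taken as the root mean square difference of mean-centred log2 CPM over the 7 libraries, among 165 other tested miRNAs averaging 50 CPM or more. A library's scaling shifts both miRNAs alike and drops out of this difference, so the order hardly depends on the scaling by construction. The miRNAs most like miR-26a-5p were miR-1964-3p (0.10), miR-532-5p (0.15), miR-30d-5p (0.15), miR-92a-3p (0.17) and miR-25-3p (0.19). Those most like miR-26b-5p were miR-27b-3p (0.09), miR-141-3p (0.09), miR-3068-3p (0.15), let-7a-5p (0.17) and miR-1843b-5p (0.20). The members differed from each other by 0.39, which placed miR-26b-5p 37th for miR-26a-5p and miR-26a-5p 34th for miR-26b-5p, against medians of 0.62 and 0.61 over all compared. MiR-27b-3p, the nearest to miR-26b-5p, stood at 29792 and 32000.4 CPM in neonatal VM, 47331 and 51079 CPM in adult VM, 31745 CPM in neonatal TN and 31405 and 31493 CPM in adult TN libraries. Its adult VM libraries lay apart from the rest, which follows from its choice by likeness over these same 7 libraries.

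**Figure D4:**
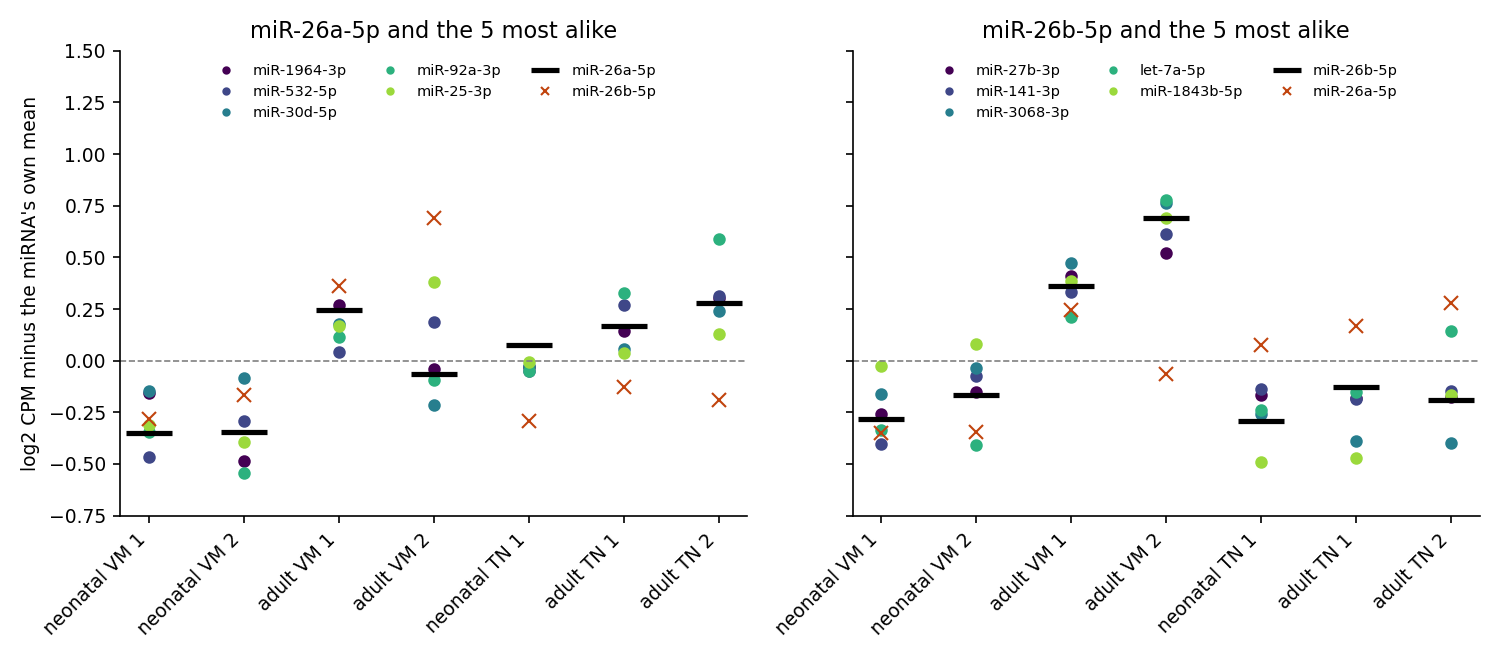
Log2 CPM minus each miRNA's own mean in the 7 libraries, for miR-26a-5p (left, bars) and miR-26b-5p (right, bars), their 5 most alike miRNAs (dots) and the other member (crosses). The right panel shows the 2 adult VM libraries high for miR-26b-5p and for the miRNAs like it, which were picked by likeness over these same libraries. The members part most in adult VM replicate 2, where miR-26b-5p is 0.69 above and miR-26a-5p 0.07 below its mean.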

How the data were processed

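Small RNA from sorted CD8+ T cells was made into libraries with a TruSeq small RNA kit, per the labels' protocols. The authors deposited estimated counts per mature arm and precursor (2128 lines, fractional values). The submitters' processing notes name mm10, and the aligner and counter are not given in the sources used here. Lines were summed per mature name and rounded. The 288 miRNAs reaching 10 CPM in 2 or more libraries (15.8 to 32.8 counts) were scaled by TMM and tested with edgeR (4.0.16, R 4.3.3), robust quasi-likelihood, Benjamini-Hochberg over all 288, at 0.05. An additive model (4 residual degrees of freedom) gave averages over ages or subsets; cell means (3 residual degrees) gave the rest. SE is the absolute log2 fold change over the square root of F. Groups came from the sample titles. The procedure was tested on simulated data. Members and lists were chosen with earlier results of these data known. Named miRNAs are the members, the listed miRNAs and the 5 most like each member (prior count 2); miR-6371 and miR-26b-3p follow from the seed and the hairpins. Alternatives were 4 other scalings (RLE, library totals, upper quartile, and totals lacking the 5 top miRNAs), 2 other filters (none, 100 CPM), DESeq2 1.42.0, limma voom 3.58.1, the replicate number as a block, dispersions without the robust option, the largest precursor line, and leaving out each library. Those for miR-26b-3p and the listed miRNAs were chosen after seeing the data.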

Additional observations from a re-analysis of the deposited data

How the results depend on the processing

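Over the members' 7 comparisons, 212 alternative values kept direction and call, 15 lost a call with the sign kept, 14 gained one and 5 turned the sign, 1 of which also lost its call. Causes were not tested. Most of the 212 belonged to comparisons without a call under TMM. Of 11 alternatives that kept every library, 4 kept the call of miR-26a-5p with age in VM cells. For miR-26b-5p, 10 of 11 kept the call with age in VM cells and 11 of 11 that in adult VM over TN cells. Calls lost with a library left out are given with each comparison. Library totals turned the log2 change of miR-26a-5p in neonatal over adult cells to 0.12 over both subsets, 0.21 in TN and 0.059 in VM cells, of miR-26b-5p in TN cells to 0.22 and of miR-101b-3p over both subsets to 0.14, and took the call of miR-26b-5p in VM cells (-0.25). Upper quartile factors turned the interaction of miR-26a-5p to 0.10. The subset effect of miR-26b-3p turned to -0.018 with the 100 CPM filter and -0.011 with the largest precursor line. With age over both subsets, miR-26a-5p passed with upper quartile factors and the largest line (both -0.39), and miR-26b-5p with upper quartile factors (-0.57), no filter (-0.65), limma voom (-0.51) and the largest line (-0.57). Under library totals the change of miR-26b-5p with age over both subsets was -0.058 and did not pass. By subset, miR-26b-5p passed under library totals (0.59) and upper quartile factors (0.57). The age effect of miR-26a-5p in VM cells did not pass with RLE (-0.32), upper quartile (-0.35), the 100 CPM filter (-0.22), DESeq2 (-0.32) or non-robust dispersions (-0.45). The largest line alone, which by construction leaves out the other line of miR-26a-5p, gave family shares of 3.69% (neonatal VM), 3.63% (adult VM), 4.29% (neonatal TN) and 3.37% (adult TN), and 28.8, 36.6, 20.5 and 20.3 counts of miR-26b-5p per 100 of miR-26a-5p in that order.

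Libraries were left out 1 at a time. With any but the neonatal TN library left out, the log2 change of miR-26b-5p with age over both subsets ran from -0.61 to -0.36. Without the neonatal TN library that fit gave the age effect in VM cells (-0.73). In VM cells the log2 changes with age ran from -0.54 to -0.29 for miR-26a-5p and -0.92 to -0.53 for miR-26b-5p. By subset over both ages, with the neonatal TN library kept, they ran from 0.22 to 0.51 for miR-26b-5p and -0.042 to 0.17 for miR-26b-3p. Without that library the fit gave the subset effect in adult cells (0.69 and -0.13). In adult cells the changes of miR-26b-5p ran from 0.40 to 0.82, and in neonatal cells those of miR-26a-5p ran from -0.46 to -0.34. The interaction of miR-26b-5p ran from -0.75 to -0.35. From 1 replicate difference per group, correlations (0.0165, 0.138 and -0.16) cannot tell if samples are paired. With the replicate block miR-26a-5p with age in VM cells (-0.44) did not pass, and calls by subset over both ages were 42 against 71. Over all alternatives the number called ran from 79 to 185 (155 under TMM) with age over both subsets, 18 to 111 (71) by subset, 69 to 179 (138) with age in TN, 93 to 177 (155) with age in VM, 23 to 142 (112) by subset in adult, 16 to 77 (28) in neonatal cells and 6 to 86 (23) for the interaction. Called higher and lower were 76 and 79 with age over both subsets (119 and 53 under library totals), 31 and 40 by subset over both ages (59 and 27 under totals, 58 and 25 with upper quartile), 76 and 62 with age in TN (106 and 38, 56 and 79), 66 and 89 with age in VM (117 and 49 under totals), 9 and 19 by subset in neonatal cells (21 and 14, 38 and 14, and 14 and 19 with RLE), and 5 and 18 for the interaction (18 and 12 with upper quartile, 8 and 14 with RLE). Depth limits the opposite arms other than miR-26b-3p, not the members.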
